A study of Mus musculus with 12 samples.

Results

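The UDP-glucuronosyltransferases (Ugt genes) and cytosolic sulfotransferases (Sult genes) were followed in liver RNA of iTgMir483 and Control mice. Members were the protein-coding genes of the count table with a symbol of Ugt or Sult followed by a digit, and 43 of the 55401 genes met this rule, 22 Ugt and 21 Sult genes. The livers came from 12 female mice aged 15 weeks on a C57BL/6J background, 6 iTgMir483 and 6 Control. iTgMir483 mice carried 1 extra copy of Mir483, a microRNA gene that lies within an intron of Igf2, at the Rosa26 locus under a Tet-off switch that doxycycline holds silent, so that expression starts once doxycycline given in pregnancy is withdrawn. The transgene became active after CMV-Cre, which recombines ubiquitously from early development, had removed a Neo cassette. The labels of all 12 libraries name the cross of CMV-Cre with the microRNA line, and the Control mice are given as control with no statement of which single alleles they carry. Each library was made from polyadenylated RNA of 1 liver.

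Both enzyme families attach a polar group to small lipophilic molecules such as bilirubin, steroids, bile acids and drugs, so that bile or urine can carry them away. Ugt enzymes sit in the membrane of the endoplasmic reticulum and mostly transfer glucuronic acid from UDP-glucuronic acid, whereas Sult enzymes are cytosolic and transfer sulfate from the donor PAPS. Hepatocytes are the main site of both reactions, and in mouse liver several of these genes are known to differ between the sexes, among them Sult2a1 and Sult3a1, higher in females, and Ugt2b1, higher in males.

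Values are CPM, counts scaled to the TMM-adjusted total of each library, and a gene was called changed at an adjusted p under 0.05 (edgeR's quasi-likelihood test, Benjamini-Hochberg over the 13205 genes tested) with a fold change over 1.5. Libraries held 12244123 to 30431286 counts, so that 1 count was worth 0.0329 to 0.0817 CPM. Mir483 had no counts in the 6 Control livers and 23.3 to 54.3 CPM in the 6 iTgMir483 livers. Replicate 1 of both groups stood apart from the other libraries. In Control replicate 1 Sult2a1 was at 0.188 CPM and Sult3a1 at 0.314 CPM, where the other 5 Control livers held at least 277 and 41.4 CPM, and in iTgMir483 replicate 1 Sult2a7 was at 144 CPM against at most 17.4 CPM in the other 5. Among regulators of sex-dependent liver genes, Cux2, a repressor typical of female liver, was lowest of the 12 libraries in Control replicate 1, at 4.33 CPM. Control replicates 5 and 6 were close to it, at 6.43 and 6.58 CPM. Bcl6, typical of male liver, was highest in Control replicate 1, at 59.7 CPM against at most 34.2 CPM in any other library. The Y-linked genes Ddx3y, Eif2s3y, Kdm5d and Uty had no counts in any library, and Xist was at 456 to 887 CPM. For several of the members that these 2 libraries affect, values are given with and without them. Estimates of genes outside the 2 families are given with all 12 libraries only.

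The mature products of Mir483 were compared with the members because Mir483 is the transcript that the transgene adds. In the RefSeq sequences below (chr7:142654932-142654952 and chr7:142654968-142654989, minus strand, GRCm38), capitals mark the seed, bases 2 to 8.
miR-483-3p: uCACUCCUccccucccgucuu
miR-483-5p: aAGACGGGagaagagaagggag
The site complementary to the miR-483-3p seed, AGGAGTG, occurred in the annotated 3' UTR of 3 of 42 members with one (Sult4a1, Sult5a1 and Ugt2b35), against 12.63% of 12103 tested genes. The miR-483-5p site, CCCGTCT, occurred in 0 of the 42, against 3.27%. Sult5a1 was the single member with a pair of sites, at chr8:123142255-123142261 and chr8:123140985-123140991 (minus strand, GRCm38, both within the 3' UTR), shown here with 8 bases on either side and the site in capitals.
Sult5a1 site nearer the stop codon: taaagccaAGGAGTGacttgatc
Sult5a1 site farther from the stop codon: gttctccaAGGAGTGtctgtctg
A match of these letters is a description and does not show that the microRNA binds there.

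Of the 43 members, 28 passed the filter on low counts and were tested, 15 of 22 Ugt and 13 of 21 Sult genes. Over all 13205 tested genes 8.41% were called higher and 2.73% lower in iTgMir483 livers. No Ugt gene was called higher and 3 of 15 were called lower, namely Ugt2b1, Ugt2b37 and Ugt3a1. Ugt2b37 passed the filter only through the Control livers, where it was high, so its call and lack of overlap in this fit add no support. Of the 13 tested Sult genes, 2 were called higher (Sult1e1 and Sult2a7) and 3 lower (Sult2a8, Sult3a1 and Sult5a1). The median log2 fold change was -0.40 for the tested Ugt genes and -0.12 for the tested Sult genes, beside 0.01 for all tested genes. In bulk liver RNA, fewer cells of a type and less RNA per cell cannot be told apart. The estimate lay below 0 for 14 of 15 Ugt genes and 7 of 13 Sult genes, where 49.2% of all tested genes did. In 3 of the 28 tested members every iTgMir483 library was below every Control library, beside 2.83% of all tested genes, and in 0 of the 28 every one was above, beside 5.09%. With both replicate 1 libraries left out, 6 Ugt genes were called lower and 0 higher, and of 14 tested Sult genes 1 was called higher and 4 lower. The latter included Sult3a2, which the main filter left out. That fit retained Sult3a2, Ugt1a10 and Ugt2b37 only through the Control livers, where they were higher. Their lower calls there add no support. Over all 13226 genes of that fit, 1248 were called higher and 448 lower, beside 1110 and 360 of 13205 in the main fit.

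**Figure D1:**
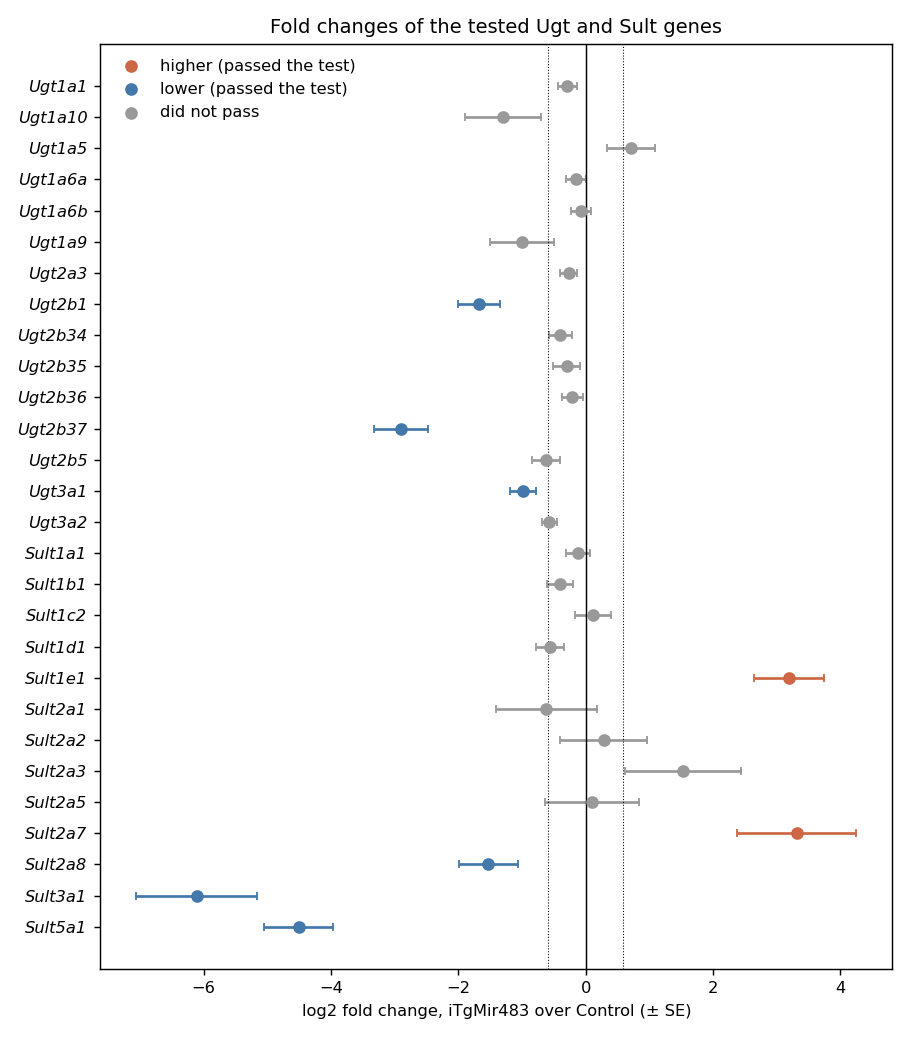
Log2 fold change of the 28 tested Ugt and Sult genes, iTgMir483 over Control (x axis, points with SE from edgeR, 6 livers in each group), with dotted lines at a fold change of 1.5. All Ugt estimates but that of Ugt1a5 lie left of 0, and the Sult genes spread from -6.11 for Sult3a1 to 3.31 for Sult2a7.

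The Ugt1 locus on chromosome 1 makes each enzyme from a first exon of its own joined to shared last exons, so the counts of a Ugt1a gene rest on the 39.4 to 49.7% of its exon bases that no other gene holds. Of 9 Ugt1a genes, 6 were tested and none was called. Ugt1a1, the enzyme that conjugates bilirubin, had a lowest, median and highest value of 244, 333 and 419 CPM in Control livers and of 222, 262 and 351 CPM in iTgMir483 livers. The groups overlapped, and the difference did not pass (log2 fold change -0.29 ± 0.15 SE, adjusted p 0.198). Ugt1a9, which acts on phenols, ranged from 41.5 to 130.5 CPM in Control and from 2.34 to 76.1 CPM in iTgMir483 livers (a 2.01-fold lower estimate, adjusted p 0.177), the lowest value standing in iTgMir483 replicate 4. Ugt1a5 was the only tested Ugt gene with a positive estimate, at 12.5 to 56.5 CPM and 29.8 to 87.0 CPM (0.72 ± 0.38, adjusted p 0.201). Ugt1a6a and Ugt1a6b, forms of the enzyme for small planar phenols, stayed at 7.25 to 25.3 CPM over the 12 livers with estimates of -0.15 and -0.08. Their coding sequences are 98.4% identical, and the first exon of Ugt1a6a is also annotated to a transcript of Ugt1a7c, so their separate counts are uncertain. Ugt1a10 was near the limit of detection, with 0.684 to 2.13 CPM in Control livers and 0.00 to 1.60 CPM in iTgMir483 livers, where 5 of 6 libraries were below every Control library. It did not pass (-1.30 ± 0.59, adjusted p 0.139), and without iTgMir483 replicate 1, the highest of its group, it was called lower (-2.25, adjusted p 0.00829). That fit left out the only iTgMir483 library inside the Control range and retained Ugt1a10 only through the Control livers. This call therefore adds no support.

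The Ugt2 genes lie in 1 cluster on chromosome 5 and conjugate steroids, bile acids and many drugs. All 7 tested Ugt2 genes had estimates below 0, and Ugt2b1 and Ugt2b37 were called lower. Ugt2b1 (chr5:86916638-86926530, GRCm38) had a lowest, median and highest value of 118, 187 and 441 CPM in Control livers and of 41.3, 61.3 and 133 CPM in iTgMir483 livers. The highest value of each group was its replicate 1, and 5 of 6 iTgMir483 libraries were below every Control library. Ugt2b1 was 3.19-fold lower (log2 fold change -1.67 ± 0.33, adjusted p 0.00399), and with both replicate 1 libraries left out the log2 fold change was -1.64 (adjusted p 0.000126). Ugt2b37 (chr5:87240493-87254804) was a minor transcript, at 1.19, 1.83 and 4.39 CPM in Control and 0.0728, 0.299 and 0.540 CPM in iTgMir483 livers. The groups did not overlap, and the difference was -2.90 ± 0.43 (adjusted p 0.000806). It rested on 19 to 76 counts per Control library and 1 to 9 counts per iTgMir483 library. The gene passed the filter on low counts only through the Control livers, where it was high, so a lower call was favoured in advance. With no filter Ugt2b37 was also called lower (-2.93 ± 0.42, adjusted p 0.000148).

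The other 5 tested Ugt2 genes were not called. Ugt2b5 had 339, 437 and 709 CPM in Control livers and 219, 266 and 502 CPM in iTgMir483 livers, again with replicate 1 highest in each group. Its 5 other iTgMir483 libraries were all below the Control range, and the difference did not pass (-0.63 ± 0.22, adjusted p 0.0629). Without both replicate 1 libraries Ugt2b5 was called lower (-0.67 ± 0.13, adjusted p 0.00378). Ugt2b36 gave 414, 471 and 644 CPM against 343, 397 and 655 CPM (-0.21 ± 0.16, adjusted p 0.383). Ugt2b34 gave 329, 392 and 502 CPM against 215, 283 and 476 CPM (-0.40 ± 0.18, adjusted p 0.136). Both overlapped between groups, with 4 and 5 of the 6 iTgMir483 libraries below every Control library. Ugt2a3 stood at 158, 197 and 248 CPM against 119, 169 and 187 CPM (-0.27 ± 0.13, adjusted p 0.156). Ugt2b35, the Ugt gene with a miR-483-3p seed match, stood at 86.4, 109 and 165 CPM against 65.2, 81.6 and 149 CPM (-0.30 ± 0.21, adjusted p 0.342). Neither of these passed. Ugt2a1 and Ugt2a2, known from olfactory epithelium, share nearly all exon bases with each other and had no counts.

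Ugt2b5, Ugt2b37 and Ugt2b38 are close copies, with coding sequences 94.7% identical between Ugt2b37 and Ugt2b5 and 97.0% between Ugt2b38 and Ugt2b5. Reads of copies this close may be counted for the wrong gene: 58.3% of the 50-base words of Ugt2b5 and 81.7% of those of Ugt2b37 occur in no transcript of another gene. Their levels differed widely, since Ugt2b38 did not exceed 1.07 CPM in any library. Their promoters are shown because these genes share a start region but not a level. The windows below run from 130 bases before to 20 bases after the RefSeq start (GRCm38.p6), with matches to the searched motifs in capitals.
Ugt2b5 chr5:87140321-87140470 (minus strand): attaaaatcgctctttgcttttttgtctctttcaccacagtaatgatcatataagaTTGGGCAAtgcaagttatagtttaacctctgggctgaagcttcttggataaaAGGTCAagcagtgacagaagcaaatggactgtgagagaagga
Ugt2b37 chr5:87254769-87254918 (minus strand): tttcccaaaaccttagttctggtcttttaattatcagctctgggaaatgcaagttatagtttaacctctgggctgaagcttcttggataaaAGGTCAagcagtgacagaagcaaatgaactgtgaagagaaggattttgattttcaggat
Ugt2b38 chr5:87424184-87424333 (minus strand): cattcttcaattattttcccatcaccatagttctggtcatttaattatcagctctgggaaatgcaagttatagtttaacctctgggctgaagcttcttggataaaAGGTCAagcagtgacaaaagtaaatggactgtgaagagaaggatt
Over the full 300-base windows, Ugt2b37 and Ugt2b38 were 86.7% identical, Ugt2b38 and Ugt2b5 84.3%, and Ugt2b37 and Ugt2b5 74.7%, beside a median of 46.0% over all pairs of member promoters. All of them hold AGGTCA, a recognition sequence of HNF4 and other nuclear receptors, 22, 39 and 25 bases before the annotated start of Ugt2b5, Ugt2b37 and Ugt2b38. The Ugt2b5 window alone also holds TTGCNNAA, a C/EBP motif, read on the other strand.

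Ugt3 enzymes use UDP-sugars other than UDP-glucuronic acid. Both Ugt3 genes had lower estimates in iTgMir483 livers, and only Ugt3a1 crossed the fold threshold. Ugt3a1 (chr15:9276888-9315032) had 50.1, 60.8 and 77.8 CPM in Control livers and 19.9, 32.1 and 50.01 CPM in iTgMir483 livers. The groups did not overlap, though the highest iTgMir483 library, replicate 1, came within 1 CPM of the lowest Control library, also replicate 1. Ugt3a1 was 1.98-fold lower (-0.98 ± 0.20, adjusted p 0.00503). Ugt3a2 was the more abundant copy, with 343, 395 and 445 CPM against 233, 249 and 352 CPM, and 5 of 6 iTgMir483 libraries lay below every Control library. Its log2 fold change of -0.57 ± 0.12 passed the test on adjusted p (0.00583) but stayed just under a fold change of 1.5. It was called lower in 10 of the 21 alternative fits, including the one without both replicate 1 libraries (-0.69). The coding sequences of the 2 genes are 93.3% identical. Ugt8a, which makes galactosylceramide in myelin, stayed at or below 0.439 CPM and was not tested.

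**Figure D2:**
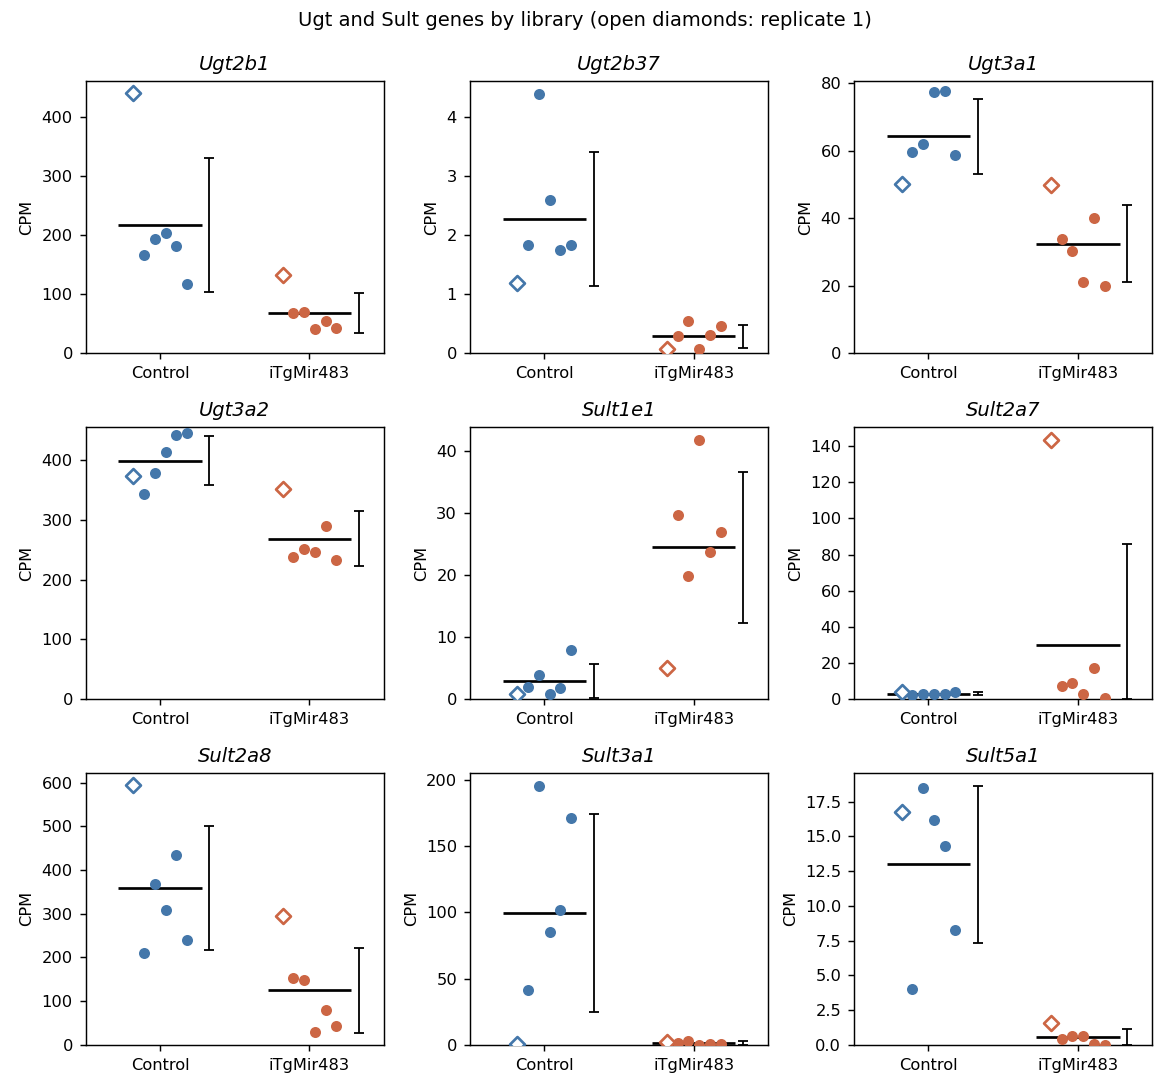
CPM of the 8 members that changed and of Ugt3a2 in each of the 6 Control and 6 iTgMir483 livers (points; open diamonds, replicate 1; horizontal line, mean; bar, SD, cut at 0). Ugt2b37, Ugt3a1 and Sult5a1 do not overlap between the groups, and the mean of Sult2a7 in iTgMir483 livers is drawn up by replicate 1 at 144 CPM.

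Sult1 enzymes act on phenols, catecholamines and estrogens. Of 6 Sult1 genes, 5 were tested and 1 was called. Sult1e1, the estrogen sulfotransferase (chr5:87575969-87591594), had a lowest, median and highest value of 0.816, 1.82 and 7.95 CPM in Control livers and of 4.95, 25.3 and 41.8 CPM in iTgMir483 livers. In iTgMir483 livers 5 of 6 libraries were above every Control library, the exception being replicate 1, and Sult1e1 was 9.12-fold higher (3.19 ± 0.55, adjusted p 0.00192). It was called higher in all 21 alternative fits. Its promoter window (GRCm38.p6, drawn as above) is shown as that of the one Sult1 gene that rose.
Sult1e1 chr5:87591592-87591741 (minus strand): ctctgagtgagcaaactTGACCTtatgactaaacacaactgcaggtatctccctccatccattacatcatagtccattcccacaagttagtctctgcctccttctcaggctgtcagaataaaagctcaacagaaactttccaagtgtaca
The capitals mark TGACCT, the reverse complement of AGGTCA, starting 113 bases before the start. Sult1a1, the main phenol sulfotransferase of liver, did not pass, with 405, 572 and 633 CPM against 275, 494 and 667 CPM (-0.12 ± 0.19, adjusted p 0.693). Sult1d1, which acts on catecholamines, gave 84.8, 164 and 220 CPM against 69.7, 107 and 138 CPM (-0.57 ± 0.22, adjusted p 0.0851), and it was called lower without Control replicate 2 (-0.69 ± 0.20, adjusted p 0.0300). Sult1b1, which acts on thyroid hormone, and Sult1c2 stayed at or below 26.8 CPM and did not pass. Sult1c1 had no counts.

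The Sult2a genes sulfate steroids and bile acids, and 6 of 9 Sult2 genes were tested. Several of them differed widely among Control livers. Sult2a1 was at 0.188 CPM in Control replicate 1 and at 277 to 749 CPM in the other 5, beside 136 to 402 CPM in iTgMir483 livers. Sult2a2 was at 0.376 CPM in Control replicate 1 and at 157 to 354 CPM in the other 5, beside 143 to 299 CPM in iTgMir483 livers. Neither difference passed (Sult2a1 -0.62 ± 0.79, adjusted p 0.624, and Sult2a2 0.28 ± 0.68, adjusted p 0.810), and the groups overlapped. Without Control replicate 1 the SE of Sult2a1 fell from 0.79 to 0.33, with an estimate of -0.88 (adjusted p 0.0742). Sult2a3 and Sult2a5 had no counts in Control replicate 1 and reached 26.3 and 21.4 CPM in Control replicate 2. They spanned 0.960 to 43.0 CPM and 1.62 to 17.4 CPM in iTgMir483 livers, and neither passed (1.52 ± 0.91, adjusted p 0.264, and 0.10 ± 0.75, adjusted p 0.942). Without Control replicate 2, Sult2a3 was called higher (3.08 ± 0.86, adjusted p 0.0294). The coding sequences of Sult2a1 and Sult2a5 are 94.9% identical, and 66.8 and 65.5% of their 50-base words are their own, so part of each count may belong to the other. For Sult2a2 the share was 37.9%, so its count is uncertain too.

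Sult2a7 and Sult2a8 lie close together on chromosome 7 and were called in opposite directions. Sult2a8 (chr7:14410686-14446769), a bile acid sulfotransferase, had 211, 338 and 594 CPM in Control livers and 29.3, 115 and 294 CPM in iTgMir483 livers, with replicate 1 highest in each group. In iTgMir483 livers 5 of 6 libraries were below every Control library, and Sult2a8 was 2.88-fold lower (-1.53 ± 0.46, adjusted p 0.0328). The call was lost in 7 of the 12 fits that left out 1 library, in one of them without Control replicate 1 (-1.33, adjusted p 0.0582), and it held without both replicate 1 libraries (-1.78, adjusted p 0.00824). Sult2a7 (chr7:14465051-14494230) had 2.47, 2.71 and 4.08 CPM in Control livers and 0.774, 8.19 and 144 CPM in iTgMir483 livers. It was called higher (3.31 ± 0.94, adjusted p 0.0246), with 4 iTgMir483 libraries above and 1 below every Control library. Without iTgMir483 replicate 1 the log2 fold change was 1.32 ± 0.50 and did not pass (adjusted p 0.0774). Sult2a4, Sult2a6 and Sult2b1 stayed at or below 0.627 CPM and were not tested.

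Sult3 enzymes sulfate amines, and both genes were nearly silent in iTgMir483 livers. Sult3a1 (chr10:33857721-33879532) was at 0.314 CPM in Control replicate 1 and at 41.4 to 196 CPM in the other 5 Control livers, with a median of 93.3 CPM over all 6. In iTgMir483 livers it had a lowest, median and highest value of 0.220, 0.880 and 3.30 CPM. Every iTgMir483 library was therefore below the 5 other Control livers, while Control replicate 1 lay inside the iTgMir483 range. Sult3a1 was 69.1-fold lower (-6.11 ± 0.95, adjusted p 0.00111), and the estimate was -6.37 ± 0.53 without Control replicate 1 (adjusted p 1.3e-05). With limma-voom, it did not pass (-5.24 ± 2.59, adjusted p 0.172). Sult3a2 was excluded from the test by the filter on low counts. It had 0.00 CPM in Control replicate 1 and 1.90 to 19.9 CPM in the other 5 Control livers, against 0.00 to 0.218 CPM in iTgMir483 livers. It was called lower in each of the 9 alternative fits that retained it, among them the fit with no filter (-6.47 ± 0.94, adjusted p 0.00017) and the fit without Control replicate 1 (-6.72 ± 0.74, adjusted p 0.000134). Except with no filter, these fits retained Sult3a2 only through the 5 Control livers where it was high. A lower call there was therefore nearly fixed in advance and adds no support. The coding sequences of the 2 genes are 91.0% identical, and 93.8% of the 50-base words of Sult3a1 are its own. The promoter window of Sult3a1 (GRCm38.p6, drawn as above) is shown because this gene had the largest fold change of the tested members.
Sult3a1 chr10:33857592-33857741 (plus strand): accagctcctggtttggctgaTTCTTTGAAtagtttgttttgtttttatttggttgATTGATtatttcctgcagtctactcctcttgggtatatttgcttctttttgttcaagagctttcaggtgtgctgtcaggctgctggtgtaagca
The capitals mark TTCNNNGAA, the STAT motif, 109 bases before the start, and ATTGAT, the HNF6 core, 74 bases before it. The STAT motif occurred in 8.3% and the HNF6 core in 7.5% of 32851 promoter windows.

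Sult5a1 (chr8:123140192-123158315), a little-studied member, was 22.7-fold lower in iTgMir483 livers (-4.51 ± 0.54, adjusted p 0.00021). Its lowest, median and highest values were 4.03, 15.3 and 18.5 CPM in Control livers and 0.00, 0.544 and 1.60 CPM in iTgMir483 livers. The groups did not overlap, and it was called lower in all 20 alternative fits that retained it. The estimate was -5.12 ± 0.55 without iTgMir483 replicate 1 (adjusted p 6.62e-05) and -5.04 ± 0.56 without both replicate 1 libraries (adjusted p 0.000127). Sult4a1, a brain member with no well-defined substrate, had at most 1 count in a Control library and 1 to 6 counts in each iTgMir483 library. It was not tested, and with no filter it was called higher (3.34 ± 0.76, adjusted p 0.00771). Sult6b1 stayed at or below 0.274 CPM, and Sult6b2 had no counts.

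Summed over members, the TMM-adjusted CPM of these families was lower in iTgMir483 livers, and no test was run on sums. The 43 members together had a lowest, median and highest sum of 4400, 4647 and 4790 CPM in Control livers. In iTgMir483 livers the sums were 2816, 3186 and 4274 CPM, and the groups did not overlap on this scale. The TMM factors were 0.894 to 1.004 in Control and 0.966 to 1.131 in iTgMir483 libraries. Without them, the sum of iTgMir483 replicate 1 would lie within the Control range. The highest iTgMir483 sum was that of replicate 1. The Ugt sum was 2453 to 3573 CPM against 1702 to 2931 CPM and the Sult sum 1217 to 2107 CPM against 981 to 1561 CPM, both overlapping. Control replicate 1 had the highest Ugt sum and the lowest Sult sum of its group, and its total of 4790 CPM was the highest Control total. The Ugt3 sums came within 1 CPM of each other without overlap (403 to 520.4 CPM against 253 to 402 CPM), and the Sult3 sum had a median of 99.6 CPM in Control and 0.958 CPM in iTgMir483 livers.

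**Figure D3:**
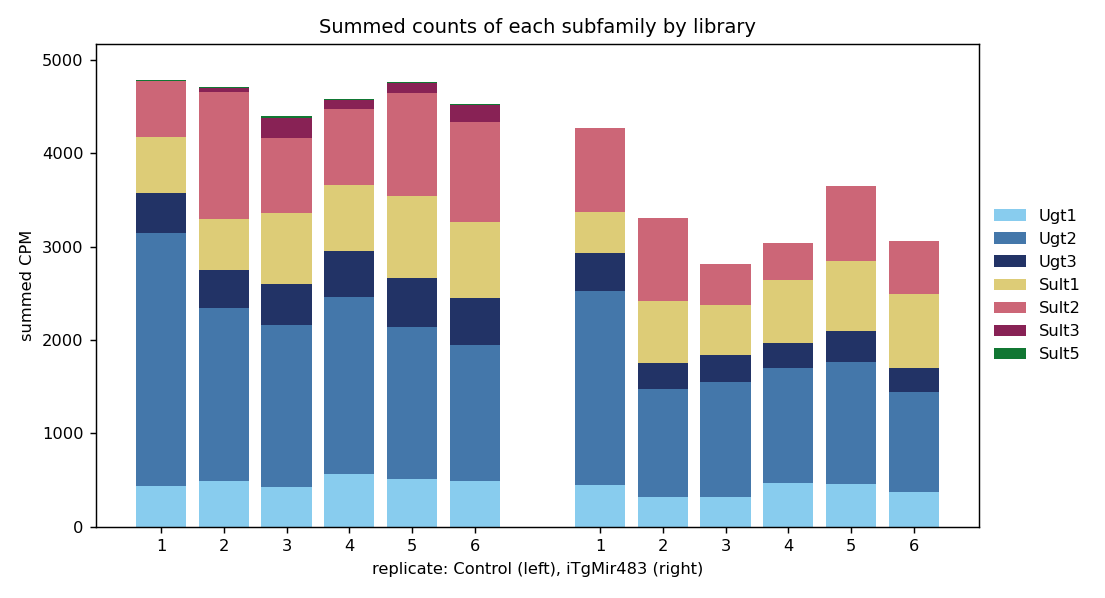
Summed CPM of the Ugt1, Ugt2, Ugt3, Sult1, Sult2, Sult3 and Sult5 genes (stacked bars) in each library, Control replicates on the left and iTgMir483 replicates on the right. Every iTgMir483 bar is below the lowest Control bar, which stands at 4400 CPM, and the Sult3 segment is hardly visible in Control replicate 1 and in the 6 iTgMir483 livers.

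Per length, as CPM per kilobase of exon bases that belong to 1 gene only, Sult2a1, Ugt1a1 and Sult1a1 led the Control livers at 389 ± 254.5, 365 ± 67.5 and 358 ± 63.3 (SD, n = 6). Sult2a2, Ugt2b5 and Ugt2b36 followed at 253 ± 156, 245 ± 72.4 and 241 ± 39.1. Within each of these groups of 3 the levels differed by less than their SD, and the Sult2a levels carry the near-absence in Control replicate 1. Ugt3a2 came next at 129 ± 13.2, ahead of Sult2a8 at 109 ± 43.1 and Ugt1a9 at 105 ± 42.6. These also differed by less than the SD of the latter. None of the 7 members above Sult2a8 was called, where 8.41% of all tested genes were called higher and 2.73% lower. Among these 7, Ugt3a2 passed on adjusted p (0.00583, edgeR) and missed the fold threshold. The members that changed ranged from Sult2a8 and Sult3a1 (85.9 ± 64.6) to Sult5a1 (2.94 ± 1.28), Sult2a7 (2.39 ± 0.54), Sult1e1 (2.31 ± 2.20) and Ugt2b37 (1.20 ± 0.60). In iTgMir483 livers Sult1e1 stood at 19.7 ± 9.78 and Sult3a1 at 1.21 ± 1.05 per kilobase. With all exon bases as the length, Ugt1a1 stood at 150 ± 27.7, since its own first exon is a minor part of its transcript.

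**Figure D4:**
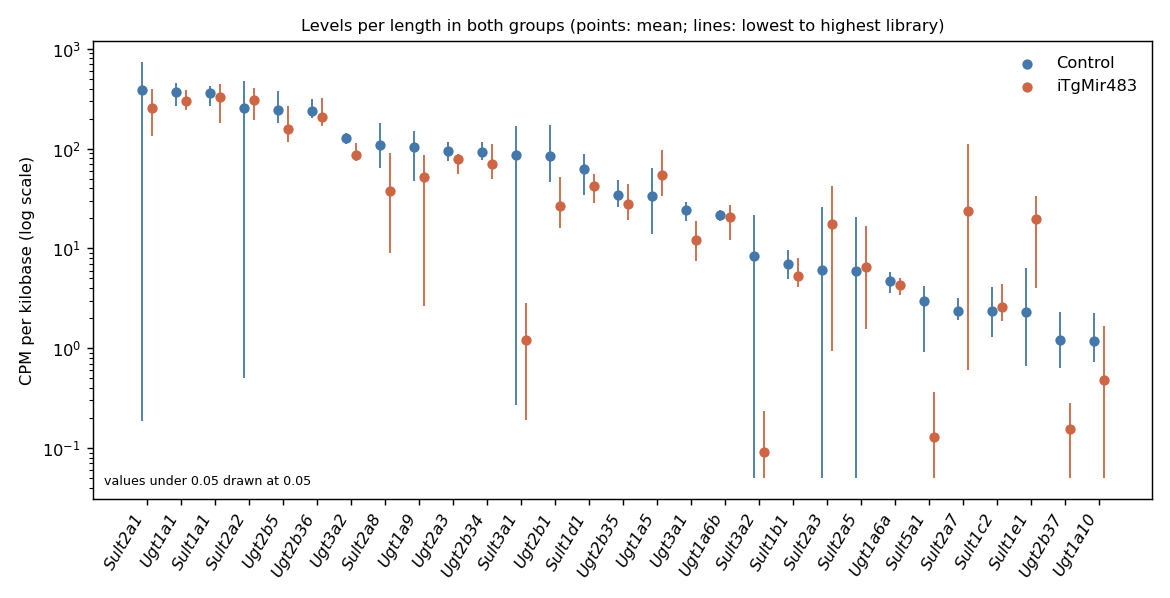
Mean CPM per kilobase (log axis) of the members with at least 1 CPM per kilobase in either group, in Control (blue) and iTgMir483 (orange) livers, with lines from the lowest to the highest of 6 libraries. Long lines mark Sult2a1, Sult2a2 and Sult3a1, whose lowest Control library is replicate 1.

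Across the 40 promoter windows of 37 members in the RefSeq table (250 bases before to 50 after the start), AGGTCA occurred on either strand in 10, against 16.3% of all 32851 windows. TTGCNNAA occurred in 9 (10.8% of all), ATTGAT in 7 (7.5%), GCGTG, the core of the AhR site, in 7 (32.4%), TTCNNNGAA in 2 (8.3%) and TGACNNNGC, the core of the Nrf2 site, in 0 (12.4%). No window was listed for Sult2a7. Windows of duplicated genes share sequence and are not independent.

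Other genes of conjugation were taken from 6 lists of supply, hydrolysis, transport and regulation. Of 70 tested genes, 5 were called higher and 7 lower, beside 8.41% and 2.73% of all tested genes. The share called higher was thus not above that of all genes. The median log2 fold change of the 70 was -0.12. Of the 10 genes for UDP-glucuronic acid supply, 1 was called higher, Pgm2, a phosphoglucomutase (0.70 ± 0.19, adjusted p 0.0189). Ugdh, which makes UDP-glucuronic acid, stood at 77.9 to 129 CPM and 57.6 to 129 CPM (adjusted p 0.165). None of 8 tested PAPS supply genes was called. Papss2, the main PAPS synthase of liver, stood at 154 to 248 CPM and 204 to 323 CPM (0.29 ± 0.15, adjusted p 0.214). Among 7 genes of conjugate hydrolysis, Arsg, a sulfatase, was called higher (1.26 ± 0.24, adjusted p 0.00361) and Ces1d, a carboxylesterase, lower (-1.40 ± 0.27, adjusted p 0.00335).

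Among 12 transporters of conjugates, the exporters Abcc4 (1.22 ± 0.22, adjusted p 0.00251) and Abcb1a (1.18 ± 0.17, adjusted p 0.000722) were called higher. Both lay between 3.70 and 25.0 CPM in all libraries. The more abundant exporter Abcc3 was lower without overlap, at 366 to 461 CPM against 222 to 361 CPM. Its difference passed on adjusted p (-0.58 ± 0.12, adjusted p 0.00572) but stayed just under a fold change of 1.5. The exporters Abcc2, Abcg2 and Abcb11 passed neither threshold. The uptake carriers Slco1a1 (-6.23 ± 1.10, adjusted p 0.00228) and Slco1a4 (-0.99 ± 0.31, adjusted p 0.0384) were called lower. Slco1a1, higher in male than in female mouse liver, was at 181 CPM in Control replicate 1 and at 1.78 to 34.9 CPM in the other 5 Control livers. Of 16 regulators, Nr1i3, the receptor CAR that induces several Ugt and Sult genes, was called lower, at 811 to 1216 CPM against 285 to 577 CPM (-1.27 ± 0.17, adjusted p 0.000478), with no overlap. Ahr (-0.44 ± 0.12, adjusted p 0.0207) and Nfe2l2, which encodes Nrf2 (0.36 ± 0.12, adjusted p 0.0406), passed on adjusted p but stayed under a fold change of 1.5. Hnf4a and Nr1i2 passed neither threshold. Of 17 tested receptor targets outside the families, Cyp3a11 (-2.56 ± 0.28, adjusted p 0.000114), Cyp4a14 (-2.54 ± 0.59, adjusted p 0.00926) and Cyp1a1 (-1.25 ± 0.35, adjusted p 0.0242) were called lower and Hmox1 (1.15 ± 0.24, adjusted p 0.00556) higher. The other 13 were not called. Among them Txnrd1 was lower without overlap and passed on adjusted p (-0.37 ± 0.10, adjusted p 0.0161) but not on fold change. Gclc (-0.56), Nqo1 (0.04), Srxn1 (0.08) and Cyp2b10 (0.38) passed neither threshold.

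**Figure D5:**
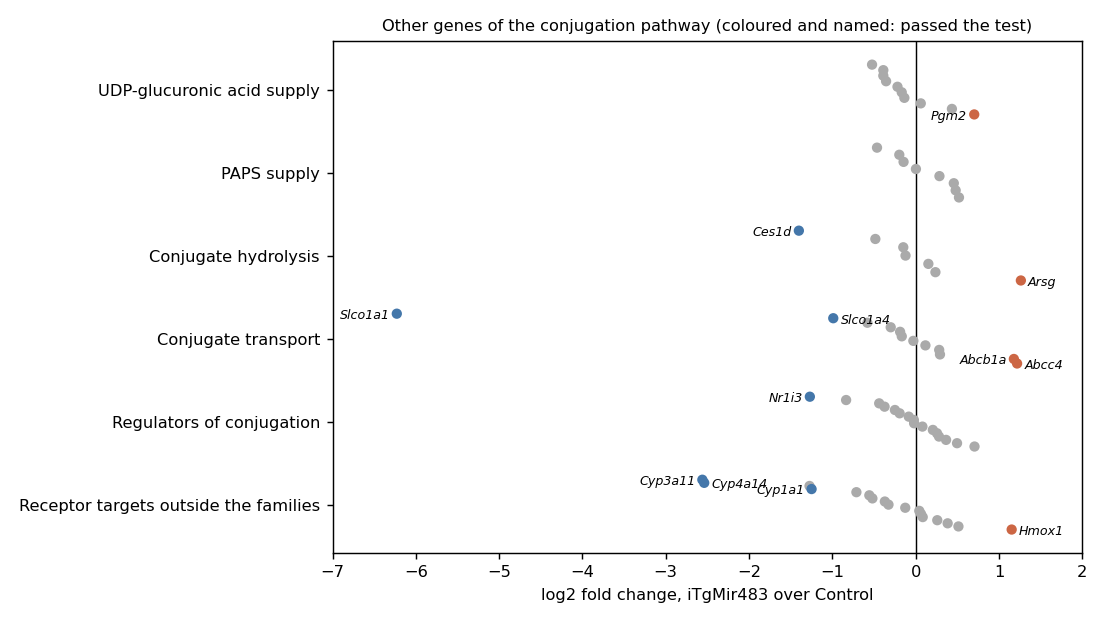
Log2 fold change, iTgMir483 over Control (x axis), of the 70 tested genes of 6 conjugation lists, 1 point a gene, with the 12 called genes coloured and named. No gene of the PAPS supply list is coloured, and the lowest points are Slco1a1 at -6.23 and Cyp3a11 at -2.56.

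Markers of some cell types also differed between the groups, where 8.41% of all tested genes were called higher and 2.73% lower. All 6 macrophage markers were called higher, and their summed level ranged from 253 to 362 CPM in Control livers and from 395 to 1138 CPM in iTgMir483 livers. Of 5 tested bile duct markers 3 were called higher (sums of 21.03 to 46.1 CPM and 60.8 to 89.4 CPM). Of 8 hepatocyte markers 1, Cps1, was called lower (sums of 125061 to 171979.9 CPM and 66371 to 135048 CPM). No tested marker of sinusoidal endothelium (6 of 6 tested), stellate cells (6 of 6), lymphocytes (1 of 5) or intestine (1 of 6) was called. The tested lymphocyte marker, Cd79a, had an estimate of -0.81 (adjusted p 0.0909), and the untested Cd3g was at 0.650 to 1.10 CPM in Control and 0.155 to 0.437 CPM in iTgMir483 livers, without overlap. The kidney sum stayed at or below 0.146 CPM, with Kap, Aqp2 and Nphs1 at 0. The part of these shifts in the Ugt and Sult differences was not tested.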

How the data were processed

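Poly(A) RNA libraries (TruSeq Stranded mRNA) of 12 livers were sequenced in paired ends. The authors aligned reads to GRCm38 with STAR and deposited raw counts per gene. The strand setting and the handling of reads with several matches are not given in the sources used here. Reads shared by close copies or by the joint exons of the Ugt1 locus may be left out or misplaced. Symbols were taken from GENCODE M21 annotation, and 55141 of 55401 genes matched.

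Counts were fitted with edgeR 4.0.16 in R 4.3.3 (filterByExpr, TMM, glmQLFit and glmQLFTest, no covariate, 6 against 6 libraries), after a test on simulated data. Genes past both thresholds, a false discovery rate of 5% and a 1.5-fold difference, are called changed, after the study's own methods. Error values beside log2 fold changes are SE. The members, gene lists and alternatives were chosen with earlier results of these data known, and some genes and sequence motifs of these lists are not reported here. By rule, values are given for members that changed or averaged at least 100 CPM in either group (19), for the rest by range, count or beside a related result, and pathway genes are named where they changed or beside a member. Sult3a2, Sult4a1 and the low Ugt1a and Sult2a members were described in more detail after their values were seen. The labels give each library an animal number of its own. No 2 libraries of a group agreed within sampling noise (smallest mean chi-square per gene 15.7). Libraries of equal replicate number had correlations of deviations of 0.49, 0.015, 0.048, 0.023, 0.194 and 0.053 for replicates 1 to 6. Replicate 1 of both groups thus shared part of its deviations, and the labels do not say whether these mice share a litter or batch. The main fit did not treat the libraries as pairs. Alternatives used DESeq2 1.42.0, limma 3.58.1, other scaling and filters, a replicate block and left-out libraries. Coding identity, 50-base words and seed matches came from GENCODE transcripts, promoters and microRNAs from RefSeq (GRCm38).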

Additional observations from a re-analysis of the deposited data

Results flagged for a closer look

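In each group of 6 livers, 1 library was examined for standing apart from the other 5 by its gap to the nearest library relative to the range (Dixon's criterion at its 95% critical value). Over 80 such groups, those of the 28 tested members and of the 12 called pathway genes, 20 libraries stood apart. Chance gives about 1 in 20 groups. Of the 20, 5 were Control replicate 1 and 6 were iTgMir483 replicate 1, and no explanation was weighed.

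In Control replicate 1, Ugt2b1 was at 441 CPM (the others 118 to 204), Ugt2b5 at 709 CPM (339 to 462), Ugt1a10 at 2.13 CPM (0.684 to 1.10), Slco1a1 at 181 CPM (1.78 to 34.9) and Cyp4a14, a fatty acid hydroxylase, at 2103 CPM (10199 to 11885). In iTgMir483 replicate 1, Ugt2b1 was at 133 CPM (41.3 to 69.6), Ugt2b5 at 502 CPM (219 to 293), Ugt2b36 at 655 CPM (343 to 421), Ugt1a10 at 1.60 CPM (0.00 to 0.439), Sult1c2 at 8.08 CPM (3.44 to 4.72) and Sult2a7 at 144 CPM (0.774 to 17.4). Ugt2b1, Ugt2b5 and Ugt1a10 were thus highest in replicate 1 of both groups.

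In Control replicate 2, Sult2a3 was at 26.3 CPM (0.00 to 5.12), Sult2a5 at 21.4 CPM (0.00 to 5.40) and Abcb1a at 12.2 CPM (5.79 to 8.16). In iTgMir483 replicate 4, Ces1d was at 1117 CPM (361 to 552), Abcc4 at 25.0 CPM (11.8 to 16.6) and Abcb1a at 23.8 CPM (15.0 to 17.6). Sult1b1 was at 22.4 CPM in iTgMir483 replicate 2 (11.3 to 15.3), Slco1a1 at 2.58 CPM in replicate 3 (0.00 to 0.510) and Ugt2a3 at 119 CPM in replicate 5 (166 to 187).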

How the results depend on the processing

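The 3 Ugt genes called lower were among those called lower in the fits with no filter (5), with DESeq2 (5), with the replicate block (5) and without both replicate 1 libraries (6). Leaving out 1 library gave 3 to 6, with 6 without iTgMir483 replicate 1. The 6 include Ugt1a10, which that fit retained only through the Control livers. Over all genes, lower calls were 360 of 13205 in the main fit, 441 of 26863 with no filter and 449 of 13205 with DESeq2. They were 424 of 13205 with the replicate block, 448 of 13226 without both replicate 1 libraries and 418 of 13335 without iTgMir483 replicate 1. No Ugt gene was called higher except 1 with the replicate block, Ugt1a5 (0.81, adjusted p 0.013). The Sult genes called higher went from 2 to 1, Sult1e1, with limma-voom, with the replicate block, in the test against a fold change of 1.5 and without both replicate 1 libraries, and leaving out 1 library gave 1 to 3. Without Control replicate 4, Control replicate 5 or iTgMir483 replicate 1 it was 1. The Sult genes called lower went from 3 to 1 with at least 10 counts in every library, where 7 Sult genes were tested, and leaving out 1 library gave 2 to 4. These counts include Sult3a2 in the 7 such fits that retained it, where its call adds no support. Pathway genes called higher (5) became 8 without a fold threshold and 1 in the test against a fold change of 1.5 (5 to 7 with 1 library left out). Those called lower (7) became 12 without a fold threshold, 3 in the test against a fold change of 1.5 and 12 without both replicate 1 libraries (6 to 13 with 1 library left out, 13 without iTgMir483 replicate 1). Over all 13205 genes, 1489 were called higher and 968 lower without a fold threshold, and 167 and 59 in the test against a fold change of 1.5. Where not set by construction, the cause was not tested.

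Estimates that did not pass turned sign for Sult2a1 with limma-voom (0.90), Sult2a2 (-0.017) and Sult2a5 (-0.16) without both replicate 1 libraries. With 1 library left out, the estimate ranged from -0.45 to 1.06 for Sult2a5 (below 0 without Control replicates 1, 3 or 5 or iTgMir483 replicate 2), from -0.10 to 0.35 for Sult1c2 (below 0 without iTgMir483 replicate 1) and from -0.17 to 0.034 for Ugt1a6b (above 0 without iTgMir483 replicate 2). With the replicate block, Ugt1a10 (-1.57, adjusted p 0.0342) and Ugt2b5 (-0.64, adjusted p 0.00677) were also called lower and Sult2a7 was not called (1.83, adjusted p 0.0929). Libraries of equal number shared deviations mainly in replicate 1 (correlation of deviations 0.49), so the block is not known to be a pairing. Ugt3a1 did not pass a test against a fold change of 1.5 (adjusted p 0.212). Ranking by all exon bases kept 4 of the 5 highest members. Genes with a few counts a library, such as Sult4a1, Sult3a2 in iTgMir483 livers and Ugt2b37, are limited by depth.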
